A study of Mus musculus with 6 samples.

Results

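The chemokines and their receptors were taken as all array features whose annotated mouse gene symbol begins with Ccl, Cxcl, Cx3cl, Xcl, Ccr, Cxcr, Cx3cr or Xcr and a digit. They made up 53 of 22575 features on the oligonucleotide array and 28 of 13482 on the cDNA array. These features name 52 genes, 34 ligands and 18 receptors, and each of the 28 genes of the cDNA array is also on the oligonucleotide array. The oligonucleotide array gave a value on all 3 arrays for all 52 genes, of 16871 genes so measured. The cDNA array did so for 18, of 5011.

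Chemokines are small secreted proteins that steer leukocytes, and the spacing of their first cysteines divides them into CC, CXC, C and CX3C families. They act on G protein-coupled receptors of the matching class, mostly through the inhibitory G proteins, and one receptor often binds several ligands. In the liver they are made by macrophages, endothelium, stellate cells, bile duct cells and hepatocytes, and the axis of Ccl2 and Ccr2 is known for drawing blood monocytes into inflamed liver.

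The data came from female C57BL/6 mice, 7 weeks old at the start and kept on chow with 4.4% fat. Treated mice received 0.5 g/kg of poloxamer P-407, a block copolymer surfactant that raises blood lipids, by the intraperitoneal route every 3 days, and control mice received saline injections on the same schedule. Livers were taken on day 96. The 12 treated mice gave 3 RNA pools and the 4 control mice a single one. The sources used here do not say which mice went into which pool. Each treated pool (Cy5) was hybridised against that control pool (Cy3) on 1 array of each type. Values are log ratios read as log2 of treated over control, and values above 0 stand for more transcript in the treated pool. They are ratios of whole liver, so more cells of a type and more RNA per cell cannot be told apart, and with no level given the tissue could not be checked by its markers. The control pool enters every array in 1 dye orientation. The spread between control animals is therefore absent from every error given, and a dye effect cannot be told apart from treatment. "Called" means a limma adjusted p under 0.05 (Benjamini-Hochberg over all genes measured on that array type).

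Ligands for monocytes and macrophages were the highest members on the oligonucleotide array, led by Ccl6 at 3.43-fold, Ccl4 at 2.53-fold, Ccl2 at 2.34-fold and Ccl3 at 2.07-fold. Cxcl10, a ligand for activated T cells, rose 1.98-fold, and Cxcl1, a neutrophil attractant, rose 1.69-fold. At the other end, Ccl24, an eosinophil attractant, fell 1.66-fold, and Cxcl13, the B cell attractant, fell 1.59-fold. No receptor reached 1.5-fold in either direction, and the highest was Cxcr6 at 1.49-fold. In all, 22 of the 52 genes were called higher and 8 lower, where 22% and 21.4% of all genes tested were called higher and lower (43.4% in either direction). At 1.5-fold or more, 6 members were called higher and 2 lower, and the shares over all genes were 2.12% and 1.23%. The median member stood at 0.10 and the median of all genes at 0.0027.

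**Figure D1:**
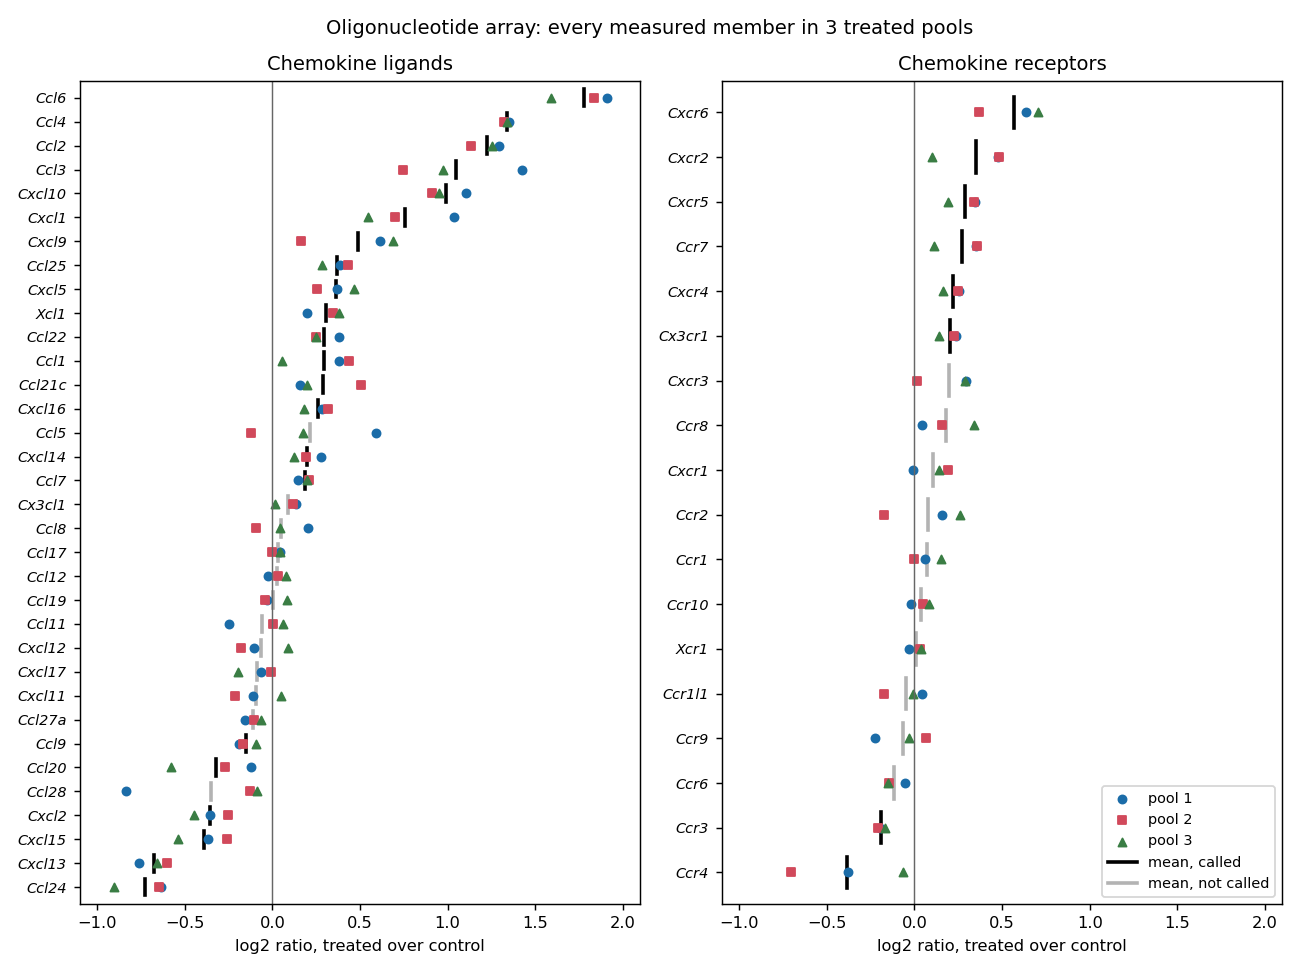
Log2 ratio of treated over control liver for the 34 ligands (left) and 18 receptors (right) on the oligonucleotide array. Each symbol is 1 treated pool and each bar the mean of 3 pools, black where called at a limma adjusted p under 0.05. Ccl6 lies highest at 1.78 and Ccl24 lowest at -0.73, and the receptors span -0.38 to 0.57.

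Of the 30 calls, 17 remained whichever pool was left out (13 higher, 4 lower), and all 8 calls of 1.5-fold or more are among them. The other 13 lost their call without at least 1 pool. Cxcl9 and Cxcr4 lost it without pool 1, and Ccl21c without pool 2. Cxcr2, Ccl1, Ccr7, Cx3cr1, Cxcl14, Ccl7, Ccl9, Ccr3 and Ccr4 lost it without either of these pools, and Ccl20 without pool 2 or pool 3. Without pools 1, 2 and 3 in turn, 19, 20 and 29 members were called. Over all 16871 genes, the 7318 calls became 4025, 4923 and 6244. How many of those genes kept their call whichever pool was left out was not counted. A fit without the shared prior called 1 member, Ccl4, and 40 of all genes. Many of the smaller calls lay within the range of genes that liver is not known to use. Among 860 chemosensory receptor genes (symbols starting with Olfr, Vmn1r, Vmn2r or Taar), 95 were called higher and 214 lower, and 95% of them had an absolute log2 ratio of at most 0.41. For all genes tested the bound that held 95% was wider, at 0.52. The chemosensory receptors also had extremes, with 10 at 1.5-fold or more, 6 of them called, and a largest absolute log2 ratio of 2.08, above that of every member. Of the members, 10 lay beyond 0.41, 8 higher and 2 lower: the 8 genes of 1.5-fold or more together with Cxcr6 and Cxcl9. The other 20 called members lay inside it.

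**Figure D2:**
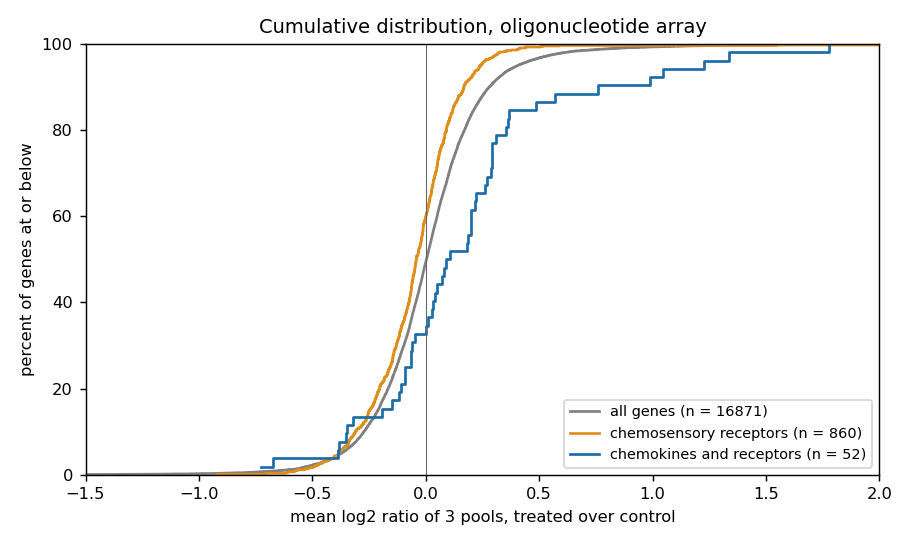
Cumulative share of genes (percent, vertical) by mean log2 ratio of 3 pools (horizontal) on the oligonucleotide array, for all 16871 genes, 860 chemosensory receptors and the 52 chemokines and receptors. The line of the chemokines and receptors has its median at 0.10 and that of the chemosensory receptors at -0.04, and the horizontal axis does not reach the most extreme genes.

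The promoters of the members called at 1.5-fold or more are shown to set the genes that moved side by side with the letters of the inflammatory response elements. They are RefSeq sequences of GRCm38.p6, the 250 bases before the annotated start, 5′ to 3′ on the gene's strand. Ccl2, Ccl4 and Ccl24 are named only. Capitals mark matches on either strand to GGGNNNNNCC, a loose form of the NF-kB site, TTTCNNTTTC, the core of the interferon-stimulated response element, or TTCNNNGAA, the gamma-activated site. Overlapping matches run together.
Ccl6, chr11:83593088-83593337, - strand: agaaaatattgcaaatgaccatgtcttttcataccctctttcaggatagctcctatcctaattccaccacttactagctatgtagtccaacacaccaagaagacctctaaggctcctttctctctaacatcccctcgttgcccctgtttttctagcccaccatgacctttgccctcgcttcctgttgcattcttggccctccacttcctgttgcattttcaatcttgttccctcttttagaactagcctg
Ccl3, chr11:83649379-83649628, - strand: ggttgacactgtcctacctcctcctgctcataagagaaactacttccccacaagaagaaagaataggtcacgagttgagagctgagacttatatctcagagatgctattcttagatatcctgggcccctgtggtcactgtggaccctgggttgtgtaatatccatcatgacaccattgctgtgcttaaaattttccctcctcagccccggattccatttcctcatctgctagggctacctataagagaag
Cxcl10, chr5:92348890-92349139, - strand: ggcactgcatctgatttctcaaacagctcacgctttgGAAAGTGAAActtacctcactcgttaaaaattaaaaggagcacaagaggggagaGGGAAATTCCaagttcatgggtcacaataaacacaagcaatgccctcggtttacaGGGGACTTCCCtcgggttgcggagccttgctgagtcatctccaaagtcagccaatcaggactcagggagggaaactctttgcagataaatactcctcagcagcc
Cxcl1, chr5:90890995-90891244, + strand: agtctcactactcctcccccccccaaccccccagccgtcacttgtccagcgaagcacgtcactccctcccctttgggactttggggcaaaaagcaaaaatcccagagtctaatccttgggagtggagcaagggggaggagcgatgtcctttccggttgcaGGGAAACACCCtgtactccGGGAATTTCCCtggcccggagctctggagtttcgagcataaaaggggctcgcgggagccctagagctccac
Cxcl13, chr5:95956689-95956938, + strand: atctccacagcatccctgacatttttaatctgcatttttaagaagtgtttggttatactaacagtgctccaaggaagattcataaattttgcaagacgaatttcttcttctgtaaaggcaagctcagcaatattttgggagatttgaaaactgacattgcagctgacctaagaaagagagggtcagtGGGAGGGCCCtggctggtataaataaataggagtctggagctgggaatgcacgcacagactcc

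The Cxcl10 window held 3 matches to the NF-kB letters and 1 to the interferon letters, and the Cxcl1 window held 4 to the NF-kB letters, which overlap in pairs. Cxcl13, which fell, held 1 match to the NF-kB letters. The windows of Ccl3 and Ccl6 held none of the 3 patterns. The NF-kB pattern is common: 45.8% of 32851 windows of this length held it. It was found in 23 of the 38 members with a window, among them Cxcl2, which fell, with 3 matches. Members are counted here and below by gene, with a match in any window, so their shares are not in the same unit as those of windows. The interferon pattern was in 2.98% of all windows and in 3 members, Ccl19, Cxcl10 and Cxcl14. The gamma-activated pattern was in 7.02% of all windows and in 4 members, Ccl17, Ccr1l1, Ccr6 and Cxcl14.

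Among the 9 inflammatory CC ligands, 5 were higher and 1 lower on the oligonucleotide array, with a median of 0.22. Over all genes 22% were called higher and 21.4% lower, the shares to set beside the counts of each group below. Ccl6, a macrophage-derived chemokine of rodents, had log2 ratios of 1.91, 1.83 and 1.59 in pools 1, 2 and 3 (1.78 ± 0.17, SD, n = 3 pools, limma adjusted p = 1.45e-04). All pools were high and lay close together. Ccl4 (MIP-1 beta), which attracts monocytes and T cells, read 1.35, 1.32 and 1.34 (1.34 ± 0.014, adjusted p = 7.92e-05), the narrowest spread among the called members. Its relative Ccl3 (MIP-1 alpha), a ligand of Ccr1, read 1.42, 0.74 and 0.97 (1.05 ± 0.35, adjusted p = 0.0020), with pool 1 the highest and pool 2 the lowest. Ccl2 (MCP-1), the main ligand of Ccr2, read 1.29, 1.14 and 1.25 (1.23 ± 0.082, adjusted p = 1.51e-04). The other ligands of Ccr2 did not follow in size: Ccl7 read 0.15, 0.21 and 0.20 (adjusted p = 0.0147), and Ccl12, at -0.026, 0.030 and 0.076, was not called. Ccl5 (RANTES) spread from 0.59 in pool 1 through 0.18 in pool 3 to -0.12 in pool 2 and was not called. Ccl8, a further monocyte attractant, was not called at 0.051. Ccl9, a macrophage and dendritic cell attractant, was lower at -0.19, -0.17 and -0.092 (adjusted p = 0.0335), within the range of the chemosensory receptors.

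The CXC ligands that attract neutrophils were split, 2 higher and 2 lower. Cxcl1, a main neutrophil attractant of the mouse, read 1.04, 0.70 and 0.55 (0.76 ± 0.25, limma adjusted p = 0.0023), and Cxcl5 read 0.37, 0.25 and 0.46 (0.36 ± 0.10, adjusted p = 0.0039). Cxcl2 (MIP-2), which binds the same receptor as both, read -0.35, -0.26 and -0.45 (-0.35 ± 0.097, adjusted p = 0.0038). Cxcl15 (lungkine), known from lung epithelium, read -0.37, -0.26 and -0.54 (-0.39 ± 0.14, adjusted p = 0.0050). In each of the 4 genes every pool had the sign of the mean, as in 37 of the 52 members. Only the mean of Cxcl1 lay beyond 0.41, the bound that held 95% of the chemosensory receptors. The means of Cxcl5, Cxcl2 and Cxcl15 lay inside it.

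Of the 3 interferon-inducible ligands of Cxcr3, which attract activated T and NK cells, 2 rose. Cxcl10 read 1.10, 0.91 and 0.95 (0.99 ± 0.10, limma adjusted p = 3.07e-04). Cxcl9 read 0.61, 0.16 and 0.69 (0.49 ± 0.28, adjusted p = 0.0126), with pool 2 well below the others. Cxcl11 was not called, at -0.11, -0.22 and 0.048.

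Among the other CXC ligands, Cxcl13, which guides B cells through Cxcr5, read -0.76, -0.60 and -0.66 (-0.67 ± 0.081, limma adjusted p = 5.72e-04), low in every pool. Cxcl16, a membrane-bound ligand of Cxcr6 that also takes up oxidised lipoprotein, read 0.28, 0.32 and 0.18 (0.26 ± 0.072, adjusted p = 0.0071). Cxcl14 read 0.28, 0.19 and 0.13 (adjusted p = 0.0186). Cxcl12, the ligand of Cxcr4, was not called at -0.065 (95% interval -0.21 to 0.084), nor was Cxcl17 at -0.090.

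Ccl24 (eotaxin-2), a ligand of Ccr3, read -0.64, -0.64 and -0.90 (-0.73 ± 0.15, limma adjusted p = 9.59e-04), the lowest mean of all members. The other eotaxin on the array, Ccl11, was not called and read -0.25, 0.0031 and 0.061. The pair differed in that every pool was low for Ccl24 and the pools disagreed in sign for Ccl11.

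Of 9 ligands that mainly guide lymphocytes in lymphoid and barrier tissue, 4 were higher and 1 lower, all by less than 1.5-fold. The shares over all genes were 22% and 21.4%. Ccl25, a thymus and gut chemokine, read 0.39, 0.43 and 0.29 (limma adjusted p = 0.0026), and Ccl22, a ligand of Ccr4, read 0.38, 0.25 and 0.25 (adjusted p = 0.0051). Ccl1, the ligand of Ccr8, read 0.38, 0.44 and 0.057 (adjusted p = 0.0287). Ccl21c, which acts on Ccr7 and has near-identical copies that an array may not separate, read 0.16, 0.51 and 0.20 (adjusted p = 0.0253), and its mean was 0.18 without pool 2 (limma adjusted p = 0.0577). Ccl20, the ligand of Ccr6, was lower at -0.12, -0.27 and -0.58 (adjusted p = 0.0286), with pool 3 lowest and a mean of -0.20 without it (limma adjusted p = 0.0521). Ccl28 owed its mean of -0.35 to pool 1 (-0.83, -0.13 and -0.086) and was not called, and neither were Ccl17, Ccl19 and Ccl27a. The C chemokine Xcl1, which acts on Xcr1 of cross-presenting dendritic cells, read 0.20, 0.35 and 0.38 (adjusted p = 0.0057). Cx3cl1 (fractalkine) has 2 oligonucleotide features of opposite sign, 1 at 0.39, 0.28 and 0.24 and the other at -0.12, -0.043 and -0.20. Tested apart, the first had an adjusted p of 0.0051 and the second 0.0882, and their average (0.091) was not called.

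Of 18 receptors, 6 were higher and 2 lower, where 22% and 21.4% of all genes were called higher and lower (43.4% in either direction). The receptors were thus called about as often as genes at large. The median absolute log2 ratio of the receptors was 0.19, beside 0.29 for the 34 ligands and 0.13 for all genes. Among the 6 CXC receptors, 4 were higher. Cxcr6, found on NKT and memory T cells of the liver, read 0.64, 0.37 and 0.71 (0.57 ± 0.18, limma adjusted p = 0.0025). Cxcr2, the neutrophil receptor for Cxcl1, Cxcl2 and Cxcl5, read 0.48, 0.48 and 0.10 (0.35 ± 0.22, adjusted p = 0.0182), with pool 3 low. Cxcr5 read 0.35, 0.34 and 0.19 (adjusted p = 0.0060), while its ligand Cxcl13 was lower in the same pools. Cxcr4 read 0.25, 0.25 and 0.16 (adjusted p = 0.0094). Cxcr3 read 0.29, 0.014 and 0.29 and missed the threshold (adjusted p = 0.0543), with the same pool low as for its ligand Cxcl9. Pool 2 was the lowest for 19 of the 52 members, so a shared low pool was common. Cxcr1 was not called at 0.11.

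Of the 10 CC receptors, 1 was higher and 2 lower, where 22% and 21.4% of all genes were. Ccr2, the monocyte receptor, read 0.16, -0.17 and 0.26 and was not called (0.080, 95% interval -0.13 to 0.29), beside a mean of 1.23 for its ligand Ccl2. Ccr1, a receptor of Ccl3, was not called either (0.070, 95% interval -0.045 to 0.18). Ccr7, which takes dendritic cells and naive T cells to lymph nodes, read 0.35, 0.35 and 0.11 (limma adjusted p = 0.0159). Ccr4, found on type 2 helper and regulatory T cells, read -0.38, -0.71 and -0.065 (adjusted p = 0.0388). Its mean was -0.22 without pool 2 (limma adjusted p = 0.122). Ccr3, the eosinophil receptor for Ccl24 and Ccl11, read -0.20, -0.21 and -0.17 (adjusted p = 0.0121). Ccr6, Ccr8, Ccr9, Ccr10 and Ccr1l1 were not called, at -0.12 to 0.18. Cx3cr1, the fractalkine receptor of patrolling monocytes and Kupffer cell precursors, read 0.24, 0.22 and 0.14 (adjusted p = 0.0131), and Xcr1 was not called at 0.012.

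Many of these genes lie side by side in the genome, and neighbours differed. In the RefSeq order of protein-coding genes on chromosome 11, Ccl5, Ccl9, Ccl6, Ccl3 and Ccl4 follow each other. The last 3 of these rose by 1.05 to 1.78, while Ccl9, next to Ccl6, was lower at -0.15 and Ccl5 was not called. In the other run on chromosome 11, Ccl2 stood at 1.23, and Ccl7, Ccl11, Ccl12, Ccl8 and Ccl1 lay between -0.061 and 0.29. On chromosome 5, Cxcl1 (0.76) lies between Cxcl15 (-0.39) and Cxcl2 (-0.35). On chromosome 9, Cxcr6 opens a run with Xcr1, Ccr1, Ccr1l1, Ccr3 and Ccr2, whose values lay between -0.19 and 0.080.

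**Figure D3:**
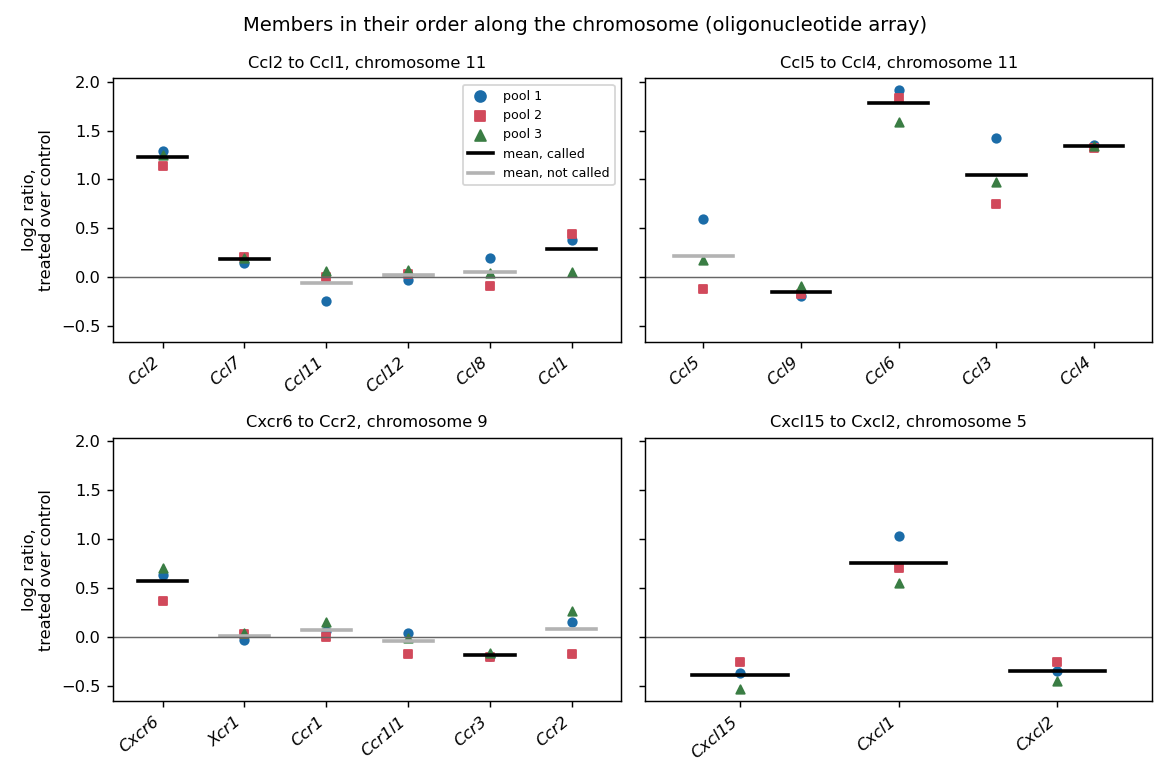
Log2 ratio of treated over control (vertical) on the oligonucleotide array for the measured genes of 4 runs of neighbouring chemokine or receptor genes, in RefSeq order along the chromosome (horizontal, not to scale). Each symbol is 1 pool, each bar the mean, black where called. In the Ccl5 to Ccl4 run the values step from -0.15 at Ccl9 to 1.78 at Ccl6.

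On the cDNA array, 18 of 28 genes had a value on all 3 arrays. Limma called none of them, and it called 0% of all 5011 genes. At an unadjusted p under 0.05 there were 6 of 18 (33.3%), where 30.3% of all genes had one, and a fit without the shared prior called 0 members. By sign alone, 6 of 18 were higher on all 3 arrays and 2 lower, where all genes gave 31.1% and 26.3%. The spread was far wider than on the other array type. Ccl2 read 3.62, 2.67 and 0.81 (2.37 ± 1.43, limma adjusted p = 0.125), high in pool 1 and lowest in pool 3. Ccl3 read 0.97, 1.08 and 1.23 (1.09 ± 0.13, adjusted p = 0.0984), and Cxcl10 read 1.21, 0.66 and 0.77 (0.88 ± 0.29, adjusted p = 0.102). Cxcl9 read 1.13, 0.60 and 0.65 (0.79 ± 0.29, adjusted p = 0.108). Ccl5 read 2.17, 2.53 and 0.30 (1.67 ± 1.20, adjusted p = 0.147), and Ccr2 read 0.92, 1.66 and 0.25 (0.94 ± 0.71, adjusted p = 0.160). These were the 6 genes with every array above 0. Ccl28 (-0.95, -0.17 and -0.29) and Cxcl12 (-0.34, -0.14 and -0.37) were below 0 on every array. Wide spreads with arrays on both sides of 0 were found in Ccr7 (-2.23, -0.57 and 0.68), Ccl22 (2.33, -0.18 and 0.090), Cxcl15 (-0.91, 0.45 and 1.5) and Cx3cr1 (-2.06, 0.12 and 0.11). Cxcl5, Ccl20, Ccl25, Cxcr5 and Ccl27a also had arrays on both sides of 0, with means between -0.30 and 0.20.

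Of the 10 genes with a missing value, Ccl7 read 0.64 and 0.85 in pools 1 and 3, Ccl11 read -0.56 and -0.88 in the same pools, Ccl9 read 0.13 and 0.10 in pools 1 and 2, and Ccl17 read -2.86 and 1.01 in pools 2 and 3. Ccl4 (1.06), Ccl12 (1.25), Xcl1 (0.92), Ccl8 (-0.24), Cx3cl1 (-0.070) and Cxcl14 (0.010) were measured in pool 3 alone.

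**Figure D4:**
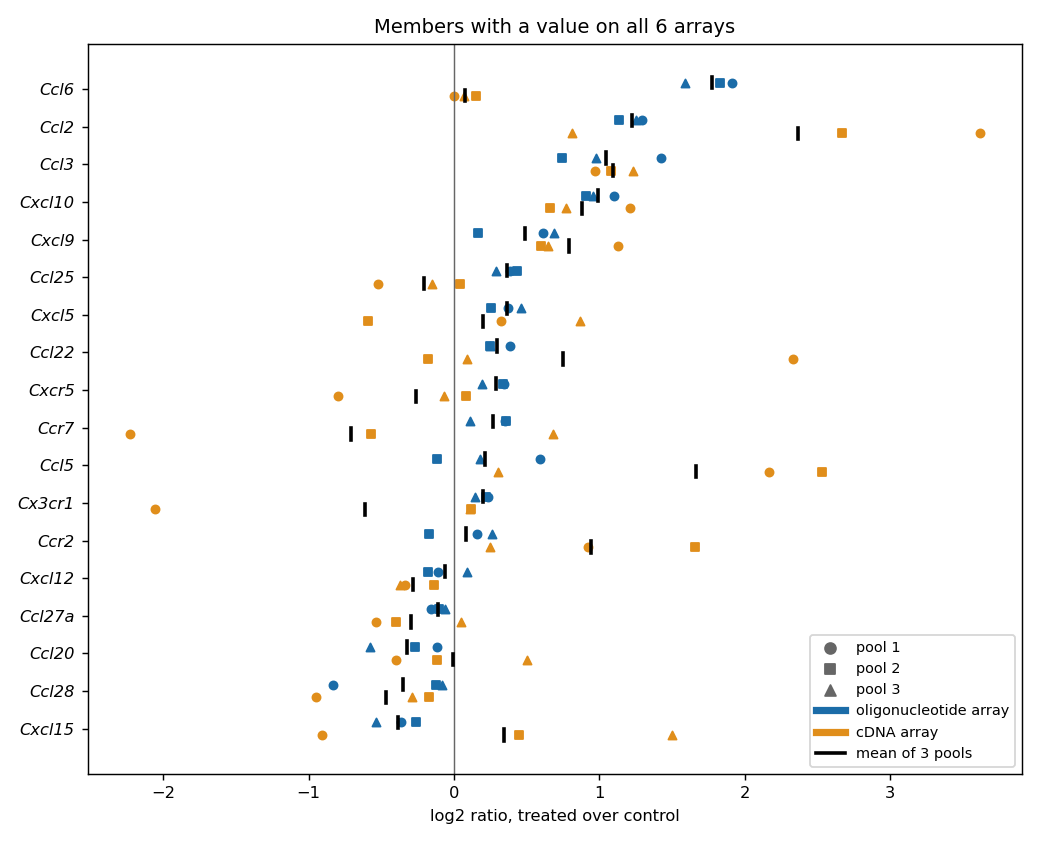
Log2 ratio of treated over control (horizontal) for the 18 genes with a value on all 6 arrays, in blue on the oligonucleotide and in orange on the cDNA array. Symbols are pools and bars means of 3 pools. Ccl6 lies at 1.78 on one array type and 0.073 on the other, while Ccl3 and Cxcl10 lie near 1 on both.

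Both array types read the same pools against the same control pool, so their values are set side by side and are not independent. Averaging the 2 arrays of a pool, limma called 3 of 18 members, all higher, where 5.1% of 4702 genes were called (2.47% higher and 2.64% lower). These were Ccl3 (1.20, 0.91 and 1.10 in pools 1 to 3, adjusted p = 0.0394), Cxcl10 (1.16, 0.78 and 0.86, adjusted p = 0.0394) and Ccl6 (0.96, 0.99 and 0.83, adjusted p = 0.0394). The Ccl6 average joins a mean of 1.78 on the oligonucleotide array with 0.073 on the cDNA array, so its height comes from the former. Ccl2 (2.46, 1.90 and 1.03) missed the threshold at an adjusted p of 0.0556, as did Cxcl9 (0.87, 0.38 and 0.67) at 0.0618. Without pool 1 or without pool 2 no member and no other gene was called, and without pool 3 there were 5 members, with Ccl2 and Ccl5 added.

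Ccl6 was the 1 member of 18 whose array types differed by limma, where 11.4% of 4702 genes did. Its cDNA values were 0.00, 0.15 and 0.070 against 1.91, 1.83 and 1.59 on the oligonucleotide array, a difference of 1.70 (95% interval 1.39 to 2.02, adjusted p = 0.0146). With the pool as a block the adjusted p was 0.128, and it was 0.248 without pool 1 and 0.194 without pool 2. Ccl5 lay the other way, at 0.22 on the oligonucleotide and 1.67 on the cDNA array, and Ccr2 at 0.080 and 0.94. Neither difference passed (adjusted p = 0.155 and 0.160), and without pool 3 those of Ccl5 (-2.11, adjusted p = 0.0310) and Ccl2 (-1.93, adjusted p = 0.0442) did. For Ccl5 and Ccr2, pool 2 was the lowest on the oligonucleotide array and the highest on the cDNA array.

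The other genes of chemokine action were described from lists on the oligonucleotide array, where 22% of all genes were called higher and 21.4% lower. No list was tested against these shares. Of 13 listed atypical receptors, chemokine-like genes and others (Cd74, Cmtm3, Cmtm6 and Cmtm7), 8 were higher and 1 lower (median 0.28). Cd74, Cmtm3 and Cmtm7 were among the higher. Ppbp and Pf4, platelet CXC chemokines, rose by 0.93 ± 0.22 and 0.66 ± 0.28, and Ccrl2, which presents chemerin, rose by 0.28 ± 0.031. Ackr4, a scavenger of Ccl19, Ccl21 and Ccl25, was lower at -0.27 ± 0.063. Of 31 signalling genes, 16 were higher and 1 lower (median 0.21). Rgs2, a regulator of G protein signalling, rose by 1.26 ± 0.15, and Rac2, a GTPase of leukocyte movement, by 0.48 ± 0.12, while Rgs16 was lower at -1.44 ± 0.44. Of 15 proteases that can trim chemokines, 10 were higher and 0 lower (median 0.23). Ctss was the highest of them at 2.03 ± 0.25, and Mmp12, the macrophage elastase, stood at 0.67 ± 0.083. Of 11 receptors for other attractants, 4 were higher and 1 lower, among the higher C3ar1 at 0.40 ± 0.040. Of 21 inducers and regulators of chemokine genes, inhibitors of NF-kB among them, 11 were higher and 4 lower (median 0.16). Irf1, an interferon-response factor, rose by 0.61 ± 0.22 and Tnf by 0.21 ± 0.022. Il1b (-1.71 ± 0.24), Cebpb (-0.93 ± 0.20), the NF-kB inhibitor gene Nfkbia (-0.32 ± 0.13) and Tnfaip3, another NF-kB inhibitor, (-0.20 ± 0.11) fell, and Ifng was not called.

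Cell type markers were read in the same pools, and their part in the chemokine values was not tested. Their counts stand beside 22% of all genes called higher and 21.4% lower, and no list was tested against these shares. Markers of Kupffer cells and other macrophages had 13 called higher and 4 lower of 18, with a list mean between 0.71 and 0.91 in the 3 pools. Their median was 0.52, and Gpnmb (4.63) and Trem2 (4.31) lay highest and raise the mean. The 4 lower were Cd163 (-1.77), Marco (-1.24), Folr2 (-1.03) and Vsig4 (-0.17), so the list did not move as one. Of 11 neutrophil markers, 8 were higher and 0 lower (list mean 0.47 to 0.78), and of 10 monocyte markers, 3 were higher and 2 lower (-0.061 to 0.028), with Ly6c2 not called. T and NK cell markers had 6 higher and 2 lower of 13 (0.084 to 0.17), B and plasma cell markers 4 and 0 of 9 (0.15 to 0.26), and dendritic cell markers 4 and 2 of 9 (0.22 to 0.24). Stellate cell and fibroblast markers had 8 higher and 1 lower of 10 (0.34 to 0.43). Liver endothelium had 0 higher and 3 lower of 10 (-0.084 to -0.018), bile duct cells 1 and 0 of 6 (0.019 to 0.092), and hepatocytes 0 and 7 of 13 (-0.49 to -0.44). The hepatocyte markers Alb, Serpina1d and Fgb held like values (-0.052, -0.21 and -0.57 in pools 1 to 3). In all, 10 genes lay within 0.001 of Alb in every pool, none of them a chemokine or receptor, and why was not tested. Without those 3 markers, a choice made after seeing the data, hepatocytes had 0 higher and 7 lower of 10 (-0.60 to -0.41).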

How the data were processed

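The authors deposited 1 value per feature and array for 3 oligonucleotide and 3 cDNA arrays, a log ratio of Cy5 over Cy3 that was read as log2. Per the labels, 0.5 ug of RNA was amplified before labelling for the former and 10 ug labelled directly for the latter. Their log base, centring, direction, background correction and normalization are not stated in the labels or file headers. Direction, treated over control, follows the dyes and titles of the labels. A natural log, which would make folds larger, is not excluded. The files hold no intensities, so signal over background is unknown and the number of arrays limits precision.

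Values of exactly 0 counted as missing, the median of the remaining features was subtracted within every array, and features of a gene were averaged. Features were named from the platform annotation. Of 18658 oligonucleotide features with 1 gene, 18445 had their gene ID in the RefSeq table of GRCm38.p6, as had 7332 of 7410 cDNA features, and no symbol differed. Features naming several genes (30 oligonucleotide, 438 cDNA) were left out, 1 and 3 of them with a chemokine or receptor. Limma 3.58.1 in R 4.3.3 (lmFit, eBayes) tested the mean of 3 pools against 0 across all genes, and the difference of array types across 6 arrays. Replicates are pools of mice, and p-values measure the spread between these pools. Pool numbers pair the arrays by design, since the series' design text says that each numbered pool's RNA was divided between both array types. The correlation of deviations of same-numbered arrays was 0.062, 0.073 and 0.074. The fits were also run on simulated data with independent errors and 200 changed genes. That simulation holds no shared control pool and no dye effect, so it cannot show how these affect the calls. Tables were made in Python 3.11.15 (pandas 2.3.3) and plots with matplotlib 3.10.9.

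The members, lists and tests were chosen with earlier results of these data known. Every member may be named. Values per array are given for members called at 1.5-fold or more, called on another fit, differing between array types or with features that disagree, and further members are given with their role group. Alternatives were zeros kept, no centring, single features, values on 2 arrays, another prior, the pool as a block and leaving out each pool.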

Additional observations from a re-analysis of the deposited data

Results flagged for a closer look

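Ccl6 differed between the array types read from the same pools, by 1.70 (oligonucleotide minus cDNA, log2), in a limma fit across 6 arrays (adjusted p = 0.0146). With the pool as a block the adjusted p was 0.128. All 3 oligonucleotide arrays lay above all 3 cDNA arrays, which restates the values behind that difference and adds no support. How many of all genes were so separated was not counted. The files give no probe sequence, and why the array types differ was not tested.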

How the results depend on the processing

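With zeros kept, no centring, single features, values on at least 2 arrays or a robust prior, the oligonucleotide array gave 30 or 31 called members. It gave 1 without the shared prior and 8 at 1.5-fold or more, and between 19 and 29 with 1 pool left out. Over all genes the 7318 calls became 40 without the shared prior and 565 at 1.5-fold or more. They became 4025, 4923 and 6244 without pools 1, 2 and 3. The cDNA array gave 0 called members under every alternative run, and over all its genes 1 call without the shared prior. Over both array types, between 0 and 5 members were called with 1 pool left out, and the 240 calls among all genes became 0 without pool 1 or pool 2 and 531 without pool 3. For the difference between array types, the replicate block gave 0 members and 0 of all genes, against 537 genes without it. With 1 pool left out, between 0 and 3 members differed, and 0 (pool 1 or 2) or 1062 (pool 3) of all genes. The block and the smaller sets leave fewer residual degrees of freedom.

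No called member changed sign under any alternative run of its fit. The array types did not always share a sign. Ccl25, Cxcr5, Ccr7, Cx3cr1 and Cxcl15 were called on the oligonucleotide array (0.37, 0.29, 0.27, 0.20 and -0.39). Their cDNA means, not called, were -0.21, -0.26, -0.71, -0.61 and 0.35. The called Ccl2, Ccl3, Ccl6, Ccl20, Ccl22, Cxcl5, Cxcl9 and Cxcl10 had means of the same sign on both. Across 4702 genes, arrays of different type correlated at 0.24 to 0.31. Of uncalled results, Cx3cl1 reached -0.12 on its second feature. With 1 pool left out, these turned sign on the oligonucleotide array: Ccl11 (-0.12 to 0.032), Ccl19 (-0.038 to 0.027), Ccl8 (-0.024 to 0.12), Ccr1l1 (-0.091 to 0.016), Ccr2 (-0.0098 to 0.21), Ccr9 (-0.13 to 0.018) and Xcr1 (-0.00065 to 0.034). On the cDNA array these did: Ccl20 (-0.26 to 0.19), Ccl22 (-0.045 to 1.21), Ccr7 (-1.40 to 0.055), Cx3cr1 (-0.98 to 0.12), Cxcl15 (-0.23 to 0.98), Cxcl5 (-0.14 to 0.60) and Cxcr5 (-0.44 to 0.0050).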
